A study of Homo sapiens with 6 samples.

Results

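The collagen and laminin chain genes of MDA-MB-231 cells were examined, 56 genes in all: 44 collagen alpha chains and 12 laminin chains among the 20260 genes of the deposited table. They were taken by symbol, as COL, a number, A and a number, or as LAMA, LAMB or LAMC and a number. The naming rule uses no measured value, but the genes were chosen with earlier results of these data known. MDA-MB-231 is a long-established line of human triple-negative breast cancer. All cells were plated in 6-well plates and transfected 48 h later, and the series asks what ABI2, an adaptor of the actin-regulating WAVE complex, does in them. The control group received an empty vector and the ABI2 group a plasmid that carries ABI2, with 3 libraries in each group. The labels do not give the promoter of the plasmid, the time from transfection to harvest, or whether the replicates were separate cultures, so the p-values measure the spread between these libraries, which may be technical.

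Collagens are trimers of alpha chains wound into a triple helix, with a different gene for most chains. Type IV collagen forms the network of basement membranes, the fibrillar types I, II, III, V and XI form the fibres of connective tissue, and type VI forms beaded microfilaments around cells. Laminins are cross-shaped trimers of 1 alpha, 1 beta and 1 gamma chain that start basement membrane assembly, and each trimer is named by the numbers of its chains. Laminin-332, which holds LAMA3 and LAMB3, is the epithelial anchoring laminin, and laminins of LAMA5 with LAMB1 or LAMB2 and LAMC1 are common in epithelial basement membranes.

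COL4A1 and COL4A2, the chains of the common type IV trimer, are read in opposite directions from one start region on chromosome 13, and their window is shown because both genes were higher in the ABI2 libraries. RefSeq (GRCh38.p14) gives their starts at 110307157 on the minus strand and 110307284 on the plus strand, 127 bp apart. The window below runs from 250 bases before to 50 bases after the COL4A2 start, at chr13:110307034-110307333 on the plus strand, and shares 226 bp with the window of COL4A1. Counted from 1 at its 5′ end, COL4A1 starts at position 124 of it, on the other strand. Its GC content was 77.7%, it held 45 CG pairs, and capitals mark the letters CCAAT at position 146 and GGGCGG at position 186.

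COL4A2 start window: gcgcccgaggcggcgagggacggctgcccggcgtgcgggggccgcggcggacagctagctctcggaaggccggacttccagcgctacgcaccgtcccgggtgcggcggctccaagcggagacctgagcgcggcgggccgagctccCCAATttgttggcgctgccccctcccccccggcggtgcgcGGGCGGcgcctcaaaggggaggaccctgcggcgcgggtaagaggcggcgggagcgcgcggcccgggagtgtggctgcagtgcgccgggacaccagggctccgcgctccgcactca

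The next windows belong to LAMA3 and LAMB3, partner chains of laminin-332 whose levels went in opposite directions. The LAMA3 window is at chr18:23872770-23873069 on the plus strand, and the LAMB3 window is at chr1:209651325-209651624 on the minus strand. Both windows lie inside their genes as the table places them, and the other listed LAMB3 windows span the 5′ end of the gene there. Capitals mark the letters CCAAT (or ATTGG, its reverse complement), the letters GGGCGG (or in reverse complement CCGCCC) and the letters TGANTCA. LAMB3 has 3 listed starts, and the window shown was chosen after its letters were seen, because it is the LAMB3 window with TGANTCA.
LAMA3 start window: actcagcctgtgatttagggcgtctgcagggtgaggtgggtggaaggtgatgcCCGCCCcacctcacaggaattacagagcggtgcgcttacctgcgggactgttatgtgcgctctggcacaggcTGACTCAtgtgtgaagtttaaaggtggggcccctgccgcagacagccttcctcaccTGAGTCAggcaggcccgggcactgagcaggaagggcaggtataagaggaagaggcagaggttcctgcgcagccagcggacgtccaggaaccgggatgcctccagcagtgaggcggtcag
LAMB3 start window: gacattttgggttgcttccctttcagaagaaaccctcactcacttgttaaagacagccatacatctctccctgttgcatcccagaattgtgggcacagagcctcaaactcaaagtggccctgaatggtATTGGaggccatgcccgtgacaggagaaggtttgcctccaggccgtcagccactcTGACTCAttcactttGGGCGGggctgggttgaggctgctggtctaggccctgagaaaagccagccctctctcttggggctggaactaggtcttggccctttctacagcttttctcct

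Windows were listed for 41 of the 56 genes, 55 windows in all, and were searched on both strands for the TATA box letters TATAAA, the letters CCAAT bound by NF-Y, the letters GGGCGG bound by SP1, the letters TGANTCA bound by AP-1 and the E-box letters CACGTG. None of these contains another. GGGCGG was in 58.2% of the 55 windows and in 45.0% of the 35116 windows of all genes. CCAAT was in 29.1% against 34.6%, TATAAA in 14.5% against 11.5%, TGANTCA in 5.45% against 7.71%, and CACGTG in 0 windows against 7.26%. The 3 windows with TGANTCA belonged to LAMA3, LAMB3 and COL10A1. Some windows overlap, as those of COL4A1 and COL4A2 and those listed for COL5A1 do, so the same letters can count more than once. These matches describe the letters of the windows and were not tested.

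Library totals were 38.5 to 40.3 in units of 1e6 counts. ABI2 was at 82.9, 81.1 and 83.3 CPM (counts per 1e6 after TMM scaling) in control libraries 1 to 3 and at 221, 221 and 225 CPM in ABI2 libraries 1 to 3, and no ABI2 library overlapped a control library. All 8 markers of the cell line were detected, and their summed level was 4404 to 4427 TPM (transcripts per 1e6, which is per length) in the control and 5028 to 5221 TPM in the ABI2 libraries. Of 8 fibroblast markers, DCN, LUM, THY1 and PDPN were at 0 in all libraries, and the sum was 1.98 to 2.45 TPM in the control and 1.29 to 2.13 TPM in the ABI2 libraries. The endothelial markers CDH5 and EMCN, the leukocyte markers PTPRC, CD3E, MS4A1 and NKG7 and the luminal markers PGR and CDH1 were also at 0. Under 1 TPM in all libraries were 5 of 8 endothelial, 6 of 8 leukocyte and 3 of 8 luminal markers. The remaining markers of each list therefore made up nearly all of its sum. The summed luminal list was 227 to 264 TPM in the control and 392 to 426 TPM in the ABI2 libraries. The endothelial list was 145 to 210.1 and 211 to 291 TPM, and the leukocyte list was 246 to 259.7 and 326 to 394 TPM. The part of these shifts in the chain levels was not tested.

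Chains of laminin and of type IV, VI, XIII and XVIII collagen made up most of the summed level. The ABI2 libraries had more mRNA of COL4A1, COL4A2, COL6A1, COL6A2 and LAMB3 and less of LAMA3, LAMB1, LAMA4 and COL12A1. In a fit that also removed a GC trend, described below, COL4A1 and COL6A2 did not pass (edgeR adjusted p = 0.198 and 0.267). Of the 56 genes, 32 passed the low-count filter, and 14 of them rose, 9 fell and 9 did not pass at an adjusted p below 0.05 by edgeR's quasi-likelihood test. Over all 13325 tested genes, 73.1% were called, 35.1% as higher and 38% as lower. The share of called genes among the tested chains, 23 of 32, was near that background. Their median log2 fold change was 0.16, against -0.0071 over all tested genes. Control and ABI2 libraries were fully separated in CPM for 27 of the 32, and over all tested genes for 77.9%. In 4 of the called genes the change reached 2-fold: LAMB3 rose, and LAMA3, COL12A1 and LAMA4 fell. In bulk libraries, fewer cells of a kind and less RNA per cell cannot be told apart.

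Fold changes in these libraries followed the GC content of the transcript, over all genes (Spearman rho 0.790 across 13314 genes) and over the 32 chains (rho 0.647, Pearson r 0.680), where genes share libraries and are not independent replicates. The 14 chains that rose had a median GC content of 61.6%, the 9 that fell 49.5%, and all tested genes 49.8%. Another fit therefore removed a smooth GC trend from each library, and a further one removed trends of GC content and transcript length. Both also remove any change of the cells that goes with these features. In the GC-corrected fit 5 of the chains rose and 14 fell, with 28.6% of all genes higher and 22.6% lower. In the GC and length corrected fit 11 rose and 7 fell, with 28.1% and 22.1%. LAMB3, COL4A2, COL17A1 and COL6A1 were among those that rose in all 3 fits, and LAMA3, LAMB1, LAMA4, COL12A1, COL15A1 and COL27A1 fell in all 3. The part of GC content in any single gene's change was not tested, and corrected values are given beside the uncorrected ones.

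**Figure D1:**
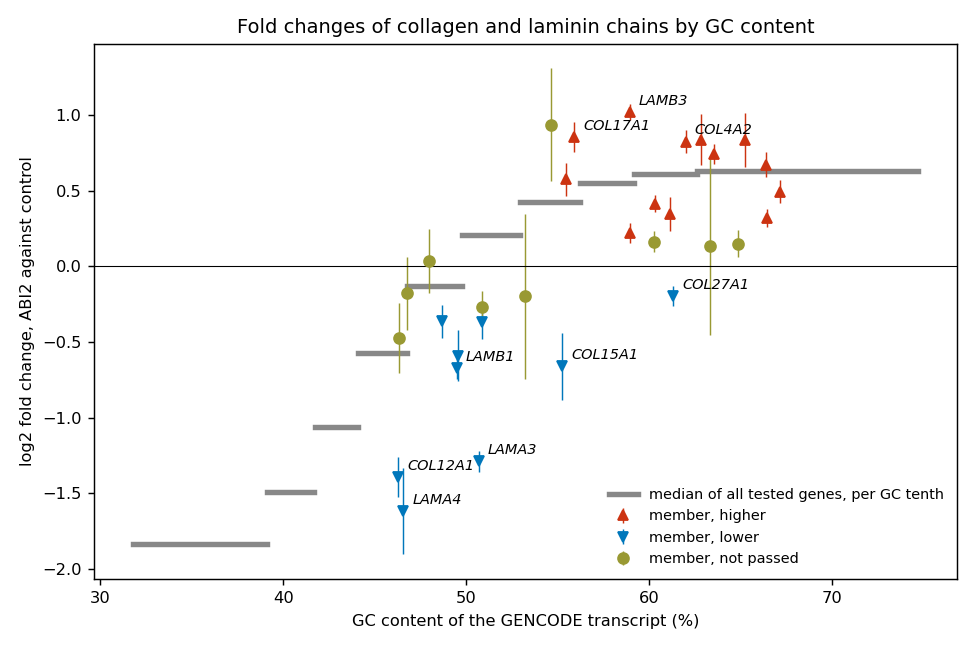
Log2 fold change of 31 tested collagen and laminin chains, ABI2 against control, by GC content of the GENCODE transcript in percent. Points are single genes with their standard error, coloured by call (red up-triangles higher, blue down-triangles lower, olive circles not passed), and grey bars are the medians of all tested genes in 10 equal bins of GC content, which run from -1.84 in the lowest bin to 0.63 in the highest bin. LAMB3 and COL17A1 lie above the bar of their bin, and LAMA3, COL15A1 and COL27A1 below it.

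Per length, COL13A1 was the most abundant collagen chain in the control libraries at 195 ± 4.46 TPM (SD, n = 3), followed by COL6A2 at 50.1 ± 4.82, COL4A2 at 33.6 ± 2.76, COL6A1 at 26.4 ± 1.5005 and COL18A1 at 21.0 ± 0.835 TPM. The next was COL27A1 at 11.4 ± 1.37 TPM, and the spreads of neighbours in the order down to COL27A1 did not overlap as mean ± SD. The share of COL13A1 in the summed collagen TPM went from 50.5% to 42.9% from control to ABI2, while the share of COL6A2 went from 12.9% to 16.1%, that of COL4A2 from 8.67% to 12.1% and that of COL6A1 from 6.81% to 9.26%. The summed collagen level was 396, 369 and 398 TPM in the control libraries and 418, 453 and 476 TPM in the ABI2 libraries, and the groups did not overlap. Among the laminins, LAMB3 was the most abundant at 139.9 ± 5.55 TPM. LAMC1 was at 95.9 ± 2.01, LAMB2 at 53.2 ± 3.94, LAMA5 at 40.5 ± 3.18, LAMB1 at 39.0 ± 2.52 and LAMA3 at 31.98 ± 3.93 TPM. LAMA5 and LAMB1 did not differ beyond their spread. The summed laminin level was 470.4, 442 and 473 TPM in the control libraries and 566, 525 and 515 TPM in the ABI2 libraries, again without overlap. These sums were not tested, since their members were chosen.

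**Figure D2:**
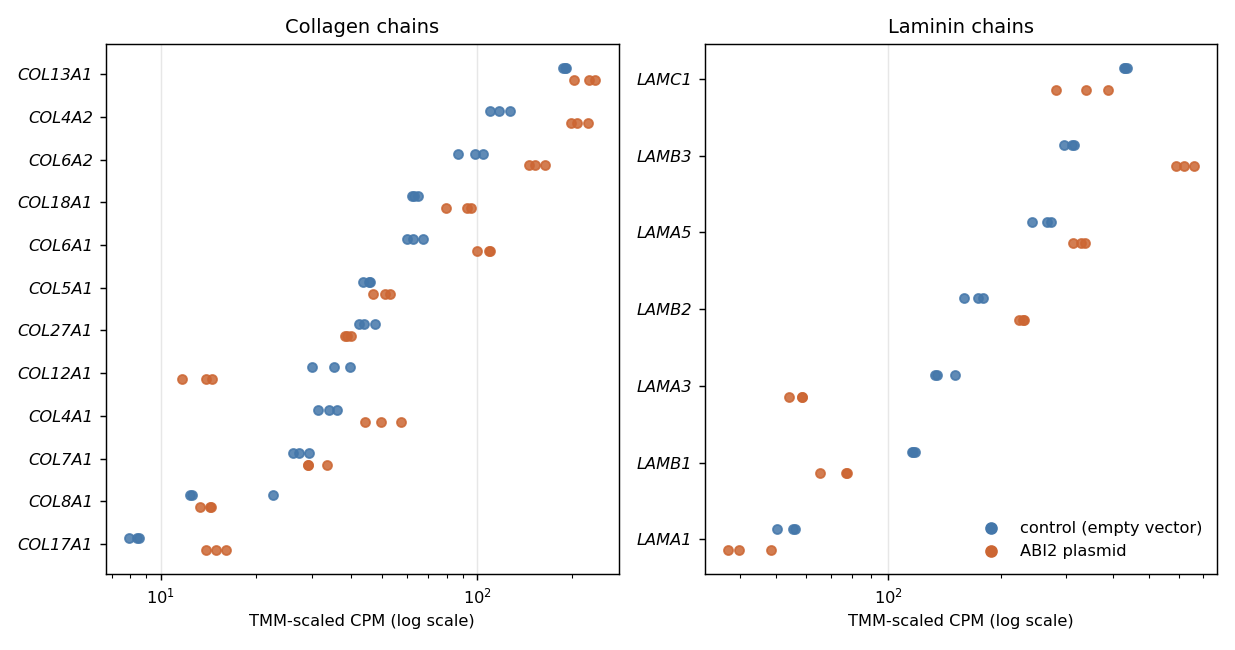
TMM-scaled CPM on a log scale of the 12 collagen (left) and 7 laminin (right) chains whose higher group averaged at least 10 CPM. Each dot is 1 library, blue for control and orange for ABI2; the groups overlap for COL7A1 and COL8A1. COL8A1 has 1 control library at 22.7 CPM apart from the other two.

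Of the type IV collagens, both chains of the widespread alpha1.alpha1.alpha2 trimer rose. COL4A2 (ENSG00000134871, chromosome 13, 110305812 to 110513027, plus strand, GRCh38), the alpha2 chain, was at 117, 109.6 and 127 CPM in the control libraries and 198, 207 and 224 CPM in the ABI2 libraries, a log2 fold change of 0.83 ± 0.074 (SE, edgeR adjusted p = 6.19e-05). Every ABI2 library was above every control library, and the gene rose in the GC-corrected fit (0.24, adjusted p = 0.00529) and the GC and length corrected fit (0.55). COL4A1 (ENSG00000187498, chromosome 13, 110148963 to 110307149, minus strand), the alpha1 chain, was at 34.1, 31.4 and 35.9 CPM in the control and 44.3, 49.5 and 57.4 CPM in the ABI2 libraries, a log2 fold change of 0.58 ± 0.11 (SE, edgeR adjusted p = 0.00231), again without overlap. With the GC correction COL4A1 did not pass (0.15, adjusted p = 0.198), and with GC and length corrected it rose (0.44). The table's coordinates of the pair overlap by 1338 bp on opposite strands, and the strand setting of the counting is not given in the sources used here, so reads there cannot be told apart. Per length, COL4A2 mRNA exceeded COL4A1 mRNA 3.60, 3.73 and 3.75 times in the control libraries and 4.74, 4.45 and 4.12 times in the ABI2 libraries, with more than 1 copy of COL4A2 mRNA per COL4A1 mRNA in every library. The trimer itself holds more alpha1 than alpha2. The ratio was higher in all ABI2 libraries (two-sided exact permutation test, p = 0.1, the smallest that 3 against 3 libraries can give; 0.133 adjusted over the 4 ratios tested).

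The other type IV chains belong to the restricted networks of kidney, lung and other specialised basement membranes and were scarce. COL4A5, the alpha5 chain, was at 8.51, 8.71 and 8.59 CPM in the control and 6.50, 7.64 and 7.27 CPM in the ABI2 libraries, and did not pass (log2 fold change -0.27 ± 0.10 SE, edgeR adjusted p = 0.0506). After GC correction it fell (-0.37, adjusted p = 0.0182), but with GC and length corrected it did not pass (-0.12, adjusted p = 0.372). COL4A4 fell, from 3.88, 4.37 and 4.01 to 3.08, 2.89 and 2.16 CPM, with a log2 fold change of -0.59 ± 0.17 (SE, edgeR adjusted p = 0.0151), and also fell with the GC correction (-0.56) but not with GC and length corrected (-0.19, adjusted p = 0.317). Without control library 2 its adjusted p was 0.0542. COL4A6 was near the filter at 0.262, 0.196 and 0.300 CPM in the control and 0.591, 0.315 and 0.553 CPM in the ABI2 libraries and did not pass (log2 fold change 0.94 ± 0.37 SE, edgeR adjusted p = 0.0555), except without ABI2 library 2 (adjusted p = 0.0260). COL4A3 did not pass the filter, with 31 counts over the control and 12 over the ABI2 libraries. These genes too lie head to head, COL4A4 with COL4A3 at start sites 419 bp apart and COL4A6 with COL4A5 at 1416 bp.

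Type VI collagen, a heterotrimer of alpha1, alpha2 and usually alpha3, showed high levels of the first pair and almost no alpha3. COL6A1 (ENSG00000142156, chromosome 21, 45981737 to 46005050, plus strand) was at 62.6, 60.1 and 67.1 CPM in the control and 99.7, 109.7 and 109 CPM in the ABI2 libraries, a log2 fold change of 0.75 ± 0.067 (SE, edgeR adjusted p = 6.35e-05). COL6A2 (ENSG00000142173, chromosome 21, 46098097 to 46132849, plus strand) was at 98.7, 87.1 and 104 CPM in the control and 152, 145 and 164 CPM in the ABI2 libraries, a log2 fold change of 0.67 ± 0.081 (SE, edgeR adjusted p = 0.000244). For both genes all ABI2 libraries were above all control libraries. With the GC correction COL6A1 rose by a smaller amount (0.15, adjusted p = 0.0325) and COL6A2 did not pass (0.078, adjusted p = 0.267), and with GC and length corrected both rose (0.32 and 0.18). The transcripts have GC contents of 63.5% and 66.4%, in the highest of 10 equal GC bins of all genes, where 73.9% of genes rose. COL6A3, the alpha3 chain, was at 0.428, 0.491 and 0.976 CPM in the control and 0.206, 0.840 and 0.606 CPM in the ABI2 libraries with overlapping groups, and did not pass (log2 fold change -0.20 ± 0.54 SE, edgeR adjusted p = 0.759). Per length, COL6A3 mRNA was 0.00267, 0.00312 and 0.00562 times that of COL6A1 in the control libraries and 0.000761, 0.00284 and 0.00209 times in the ABI2 libraries. The alternative alpha3-like chains COL6A5 and COL6A6 had 4 and 3 counts over the control libraries and 0 over the ABI2 libraries. The COL6A2 to COL6A1 ratio was 1.89 ± 0.0934 in the control and 1.74 ± 0.104 in the ABI2 libraries (SD, n = 3), with p = 0.3 in a two-sided exact permutation test (0.3 adjusted over the 4 ratios), which cannot go below 0.1 with 3 against 3 libraries.

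The classical fibre collagens of fibroblasts were scarce or not detected, and among 11 fibrillar chain genes 5 passed the filter, of which 1 rose, 1 fell and 3 did not pass. Over all tested genes 35.1% rose and 38% fell. COL5A1 (ENSG00000130635, chromosome 9, 134641774 to 134844843, plus strand), a chain of the fibril-nucleating type V collagen, was at 45.9, 43.5 and 45.5 CPM in the control and 46.8, 51.2 and 53.0 CPM in the ABI2 libraries. The groups did not overlap, but the gene did not pass (log2 fold change 0.16 ± 0.070 SE, edgeR adjusted p = 0.0699), except without ABI2 library 1 (adjusted p = 0.0275) and by DESeq2 (adjusted p = 0.0448). With the GC correction it fell (-0.40, adjusted p = 0.00115). Its partner COL5A2 was at 1.43, 0.957 and 1.10 CPM in the control and 1.23, 1.13 and 1.21 CPM in the ABI2 libraries with overlapping groups, and the other partner COL5A3 had no count. COL27A1 (ENSG00000196739, chromosome 9, 114155560 to 114312511, plus strand), a fibrillar chain of cartilage, was at 47.4, 42.4 and 43.9 CPM in the control and 39.8, 38.1 and 38.9 CPM in the ABI2 libraries and fell by a small amount (log2 fold change -0.19 ± 0.068 SE, edgeR adjusted p = 0.0350). Leaving out any library but control 2 ended that call (adjusted p = 0.0535 to 0.156), whereas the fall was larger with the GC correction (-0.77, adjusted p = 0.000167) and with GC and length corrected (-0.41). Its GC content is 61.3%, and in that GC bin of all genes 1.43% fell and 72.1% rose in the uncorrected fit.

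COL1A1, the main chain of type I collagen, was at 5.02, 4.71 and 4.76 CPM in the control and 6.14, 5.64 and 6.64 CPM in the ABI2 libraries and rose (log2 fold change 0.35 ± 0.11 SE, edgeR adjusted p = 0.0272). Its call was lost when any library but ABI2 2 was left out (adjusted p = 0.0514 to 0.0735), and it did not pass in either corrected fit (-0.23 and 0.089). COL1A2, its partner in the common type I heterotrimer, had 0 counts in the control libraries and 2 in 1 ABI2 library, and COL3A1 had 12 over the control and 4 over the ABI2 libraries. COL1A1 chains can also form homotrimers. COL11A2, a type XI chain, was at 0.809, 0.884 and 0.200 CPM in the control and 0.720, 1.02 and 0.342 CPM in the ABI2 libraries and did not pass (log2 fold change 0.14 ± 0.59 SE, edgeR adjusted p = 0.846). COL11A1, COL24A1 and COL2A1 did not pass the filter.

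Of the membrane-spanning collagens, COL13A1 and COL17A1 were expressed, and COL23A1 and COL25A1 had at most 4 counts per group. COL13A1 (ENSG00000197467, chromosome 10, 69801931 to 69959148, plus strand), a chain found at cell contacts and neuromuscular junctions, was at 189.7, 187 and 191 CPM in the control and 202, 225 and 236 CPM in the ABI2 libraries, and rose by a small amount (log2 fold change 0.22 ± 0.065 SE, edgeR adjusted p = 0.0167). In TPM this direction did not hold: COL13A1 was at 200.1, 191 and 195 TPM in the control and 172, 199.6 and 207 TPM in the ABI2 libraries, with overlapping groups. The limma test on log2(TPM + 1) gave -0.024. With the GC correction COL13A1 fell (-0.32, adjusted p = 0.00223), also with GC and length corrected (-0.29). Without ABI2 library 2 the uncorrected adjusted p was 0.0527. COL17A1 (ENSG00000065618, chromosome 10, 104031286 to 104086002, minus strand), the hemidesmosome collagen BP180 that binds laminin-332, was at 8.37, 7.93 and 8.54 CPM in the control and 13.9, 14.9 and 16.1 CPM in the ABI2 libraries and rose without overlap (log2 fold change 0.85 ± 0.10 SE, edgeR adjusted p = 0.000200). It rose in the GC-corrected fit (0.41, adjusted p = 0.00501), in the GC and length corrected fit (0.65) and without each library in turn. COL7A1 (ENSG00000114270, chromosome 3, 48564073 to 48595267, minus strand), which forms the anchoring fibrils below laminin-332, was at 29.5, 26.1 and 27.3 CPM in the control and 29.3, 29.2 and 33.5 CPM in the ABI2 libraries. The groups overlapped and the gene did not pass (log2 fold change 0.15 ± 0.090 SE, edgeR adjusted p = 0.170), while it fell with the GC correction (-0.45, adjusted p = 0.00265) but not with GC and length corrected (-0.025).

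COL12A1, a fibril-associated collagen of tendon and tumour stroma, fell the most among the collagens in the fit without correction, and COL15A1 in both corrected fits. COL12A1 (ENSG00000111799, chromosome 6, 75084326 to 75206051, minus strand) was at 35.3, 39.7 and 30.0 CPM in the control and 13.9, 14.5 and 11.7 CPM in the ABI2 libraries, a log2 fold change of -1.39 ± 0.13 (SE, edgeR adjusted p = 8.37e-05), and every ABI2 library was below every control library. The log2 fold change was -0.88 with the GC correction (adjusted p = 0.000674) and -0.51 with GC and length corrected. Its GC content is 46.3%, in a GC bin where 62% of genes fell. The other fibril-associated chains above the filter were low, and both rose. COL16A1, which lies between fibrils and cells, went from 1.12, 1.08 and 0.951 to 1.75, 1.92 and 1.97 CPM (log2 fold change 0.84 ± 0.17 SE, edgeR adjusted p = 0.00307). COL9A2, a cartilage chain, went from 2.21, 3.04 and 3.23 to 5.66, 4.62 and 4.87 CPM (log2 fold change 0.84 ± 0.18 SE, edgeR adjusted p = 0.00421). Neither passed with the GC correction (0.25 and 0.24), and with GC and length corrected COL16A1 passed (0.52). COL18A1 (ENSG00000182871, chromosome 21, 45405137 to 45513720, plus strand), the basement membrane collagen whose C-terminal fragment is endostatin, was at 65.2, 62.2 and 63.3 CPM in the control and 79.9, 95.9 and 93.1 CPM in the ABI2 libraries and rose without overlap (log2 fold change 0.50 ± 0.079 SE, edgeR adjusted p = 0.000972). It did not pass with the GC correction (-0.10, adjusted p = 0.296) and rose with GC and length corrected (0.25), and it overlaps SLC19A1 on the other strand by 20149 bp. Its relative COL15A1 fell from 1.19, 0.884 and 1.03 to 0.694, 0.656 and 0.606 CPM (log2 fold change -0.66 ± 0.22 SE, edgeR adjusted p = 0.0298). Leaving out any library but control 2 ended that call (adjusted p = 0.0563 to 0.116), and it fell in both corrected fits (-1.07 and -0.85). COL8A1 (ENSG00000144810, chromosome 3, 99638475 to 99799226, plus strand), a short-chain network collagen of vessels and cornea, was at 12.4, 12.6 and 22.7 CPM in the control libraries, where library 3 stood apart, and at 13.3, 14.4 and 14.3 CPM in the ABI2 libraries, and did not pass (log2 fold change -0.18 ± 0.24 SE, edgeR adjusted p = 0.530). Without control library 3 its log2 fold change was 0.17 (edgeR adjusted p = 0.194).

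The other 24 genes did not pass the filter, whose count minimum of 10 came to about 0.252 CPM before TMM scaling, and none had more than 19 counts in a library. COL2A1, COL5A3, COL9A1, COL14A1, COL22A1 and COL26A1 had no count. With counting error only and independent counts, this allows up to 3 counts in the shallowest library, or 0.0780 CPM before TMM scaling. Among low counts 2 was more frequent than 1, so counts may not be independent and the bound may be too low. The 18 with counts were the type IV chain COL4A3, the type VI and related chains COL6A5, COL6A6 and COL28A1, the fibrillar chains COL1A2, COL3A1, COL11A1 and COL24A1, the fibril-associated chains COL9A3, COL19A1, COL20A1 and COL21A1, the membrane-spanning COL23A1 and COL25A1, the short-chain COL8A2 and COL10A1, and the laminins LAMB4 and LAMC3. Of the 32 that passed, 29 were above that level in all 6 libraries, and COL11A2, COL4A6 and COL6A3 in 2 of 3 libraries of one group.

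Among the laminin alpha chains, LAMA3 and LAMA4 fell, LAMA1 was lower by less, and LAMA5, the most abundant alpha chain per length, was higher in CPM. LAMA3 (ENSG00000053747, chromosome 18, 23689443 to 23955066, plus strand), the alpha chain of laminin-332, was at 151, 133 and 135 CPM in the control and 58.6, 58.8 and 54.2 CPM in the ABI2 libraries, a log2 fold change of -1.29 ± 0.070 (SE, edgeR adjusted p = 1.50e-05). No ABI2 library came near a control library, and the log2 fold change was -1.38 with the GC correction (adjusted p = 3.97e-05) and -0.997 with GC and length corrected. Its GC content of 50.7% lies in a GC bin where 43.1% of genes rose and 13.8% fell. LAMA5 (ENSG00000130702, chromosome 20, 62309065 to 62367312, minus strand), the alpha chain of the common epithelial laminins, was at 273, 243 and 267 CPM in the control and 313, 338 and 328 CPM in the ABI2 libraries and rose (log2 fold change 0.32 ± 0.059 SE, edgeR adjusted p = 0.00200). It fell with the GC correction (-0.27, adjusted p = 0.00331) and rose with GC and length corrected (0.20). In TPM LAMA5 did not pass by limma (log2 fold change 0.18, adjusted p = 0.0807). LAMA1 (ENSG00000101680, chromosome 18, 6941744 to 7117814, minus strand), the embryonic alpha chain, was at 56.05, 50.3 and 55.5 CPM in the control and 48.5, 39.7 and 37.2 CPM in the ABI2 libraries and fell (log2 fold change -0.37 ± 0.11 SE, edgeR adjusted p = 0.0190). Without control 1, control 3 or ABI2 2 the adjusted p was 0.0619, 0.0539 and 0.0671. It also fell with the GC correction (-0.48) and did not pass with GC and length corrected (-0.11). LAMA4, a chain of vessels and other mesenchymal tissue, fell from 3.50, 2.87 and 1.90 to 1.11, 0.709 and 0.869 CPM (log2 fold change -1.62 ± 0.29 SE, edgeR adjusted p = 0.00161), and fell in both corrected fits (-1.16 and -0.92). It overlaps AL365214.3 on the other strand. LAMA2, the muscle alpha chain, was at 0.832, 0.957 and 0.751 CPM in the control and 0.668, 0.630 and 0.527 CPM in the ABI2 libraries and did not pass (log2 fold change -0.47 ± 0.23 SE, edgeR adjusted p = 0.104), although the groups did not overlap.

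The beta chains split, with LAMB3 and LAMB2 higher and LAMB1 lower. LAMB3 (ENSG00000196878, chromosome 1, 209614870 to 209652466, minus strand), the beta chain of laminin-332, was at 315, 296 and 311 CPM in the control and 661, 592 and 619 CPM in the ABI2 libraries, a log2 fold change of 1.02 ± 0.055 (SE, edgeR adjusted p = 1.47e-05). All ABI2 libraries were far above all control libraries, and the gene rose with the GC correction (0.49, adjusted p = 0.000568) and with GC and length corrected (0.63). LAMB1 (ENSG00000091136, chromosome 7, 107923803 to 108003255, minus strand) was at 118, 117 and 116 CPM in the control and 77.3, 76.9 and 65.5 CPM in the ABI2 libraries and fell (log2 fold change -0.67 ± 0.075 SE, edgeR adjusted p = 0.000161), also with the GC correction (-0.63) and with GC and length corrected (-0.42). It overlaps DLD on the other strand by 7928 bp. LAMB2 (ENSG00000172037, chromosome 3, 49121114 to 49133118, minus strand), the beta chain of neuromuscular and kidney basement membranes, was at 174, 159.9 and 179 CPM in the control and 232, 229 and 224 CPM in the ABI2 libraries and rose (log2 fold change 0.42 ± 0.055 SE, edgeR adjusted p = 0.000392). It fell with the GC correction (-0.14, adjusted p = 0.0314) and rose with GC and length corrected (0.11). LAMB4, which lies 127200 bp from LAMB1 by start sites, had 4 counts over the control and 3 over the ABI2 libraries.

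Of the gamma chains, LAMC1 fell, and LAMC3 had 0 counts over the control and 8 over the ABI2 libraries. LAMC1 (ENSG00000135862, chromosome 1, 183023460 to 183145592, plus strand), the gamma chain of most laminins, was at 429.8, 431 and 437 CPM in closely spaced control libraries and at 389, 338 and 281 CPM in the ABI2 libraries, and fell (log2 fold change -0.36 ± 0.11 SE, edgeR adjusted p = 0.0208). That call was lost without control 1, control 2, control 3 or ABI2 2 (adjusted p = 0.0513 to 0.0559) and in both corrected fits (-0.22 and 0.079).

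**Figure D3:**
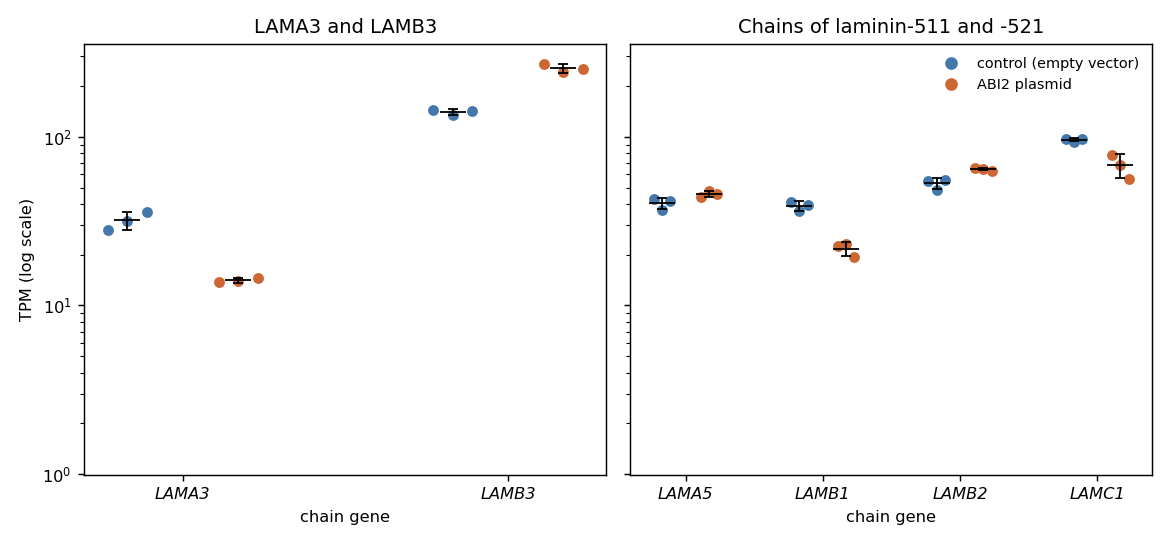
TPM on a log scale of LAMA3 and LAMB3 (left) and of LAMA5, LAMB1, LAMB2 and LAMC1 (right). Dots are libraries (blue control, orange ABI2), and bars are the mean ± SD of 3 libraries; LAMA3 goes from 31.98 to 14.1 TPM while LAMB3 goes from 139.9 to 255 TPM.

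Seen by trimer, LAMA3 and LAMB3 moved apart. LAMA3 was at 28.1, 31.8 and 36.0 TPM in the control and 13.7, 13.9 and 14.6 TPM in the ABI2 libraries. LAMB3 was at 145, 134 and 141 TPM in the control and 272, 243 and 252 TPM in the ABI2 libraries. The LAMA3 to LAMB3 ratio, chosen after its values were seen and not tested, was 0.194, 0.238 and 0.255 in the control and 0.0505, 0.0572 and 0.0580 in the ABI2 libraries. LAMA3 was below LAMB3 in every library, and its share of all laminin TPM went from 6.93% to 2.64% while that of LAMB3 went from 30.3% to 47.7%. For the laminins of LAMC1, the LAMC1 to LAMB1 ratio was 2.35, 2.58 and 2.46 in the control and 3.46, 2.93 and 2.92 in the ABI2 libraries (two-sided exact permutation test, p = 0.1, 0.133 adjusted over the 4 ratios). The LAMB2 to LAMB1 ratio was 1.36 ± 0.0437 and 2.98 ± 0.250 (SD, n = 3), and that of LAMA5 to LAMA3 1.28 ± 0.210 and 3.26 ± 0.152. Both were chosen after their values were seen and not tested. The size of the LAMA3 ratios depends on the transcript length used. From counts per kilobase of the GENCODE transcript, the mean LAMA5 to LAMA3 ratio was 1.74 in the control and 5.33 in the ABI2 libraries. The mean LAMA3 to LAMB3 ratio was then 0.184 and 0.0371.

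If count and TPM of a gene rest on the same reads, they differ by the transcript length that the authors' processing used. Their quotient per library, scaled to GENCODE lengths over all genes, is called the implied length here. The counting program is not given, so a difference in the reads assigned cannot be told apart from one in length. The implied length was computed for the 29 chains with at least 20 counts in every library. For 21 of them the groups were within 5% of each other. COL12A1 stood apart: its implied length was 10072, 10049 and 10165 bases in the control and 6752, 6887 and 6830.3 bases in the ABI2 libraries, a ratio of 0.676 without overlap. GENCODE release 29 lists COL12A1 transcripts of 11723, 9637 and 5886 bases, among others, which include the long and the short form of the protein. The COL12A1 change was smaller in TPM, from 6.61, 7.18 and 5.50 to 3.46, 3.52 and 2.86, than in counts. LAMA3, which has a long and a short form from separate starts (10661 and 5671 bases in GENCODE), had implied lengths of 10164, 7605 and 6986 bases in the control and 7191, 7107 and 6210.5 bases in the ABI2 libraries. Control library 1 stood apart and the groups overlapped. COL1A1 was at 5511, 6088 and 5583 bases in the control and 3843, 5120.2 and 4109 bases in the ABI2 libraries without overlap. GENCODE lists 1 long coding transcript for it, of 6727 bases, and transcripts without a coding sequence were not looked up. COL13A1 was at 1791, 1776 and 1822 bases in the control and 1973, 1889 and 1915 bases in the ABI2 libraries, shorter than its longest coding GENCODE transcript of 3187 bases in all libraries. These lengths are described without a p. An exact permutation test of 3 against 3 libraries cannot go below 0.1.

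**Figure D4:**
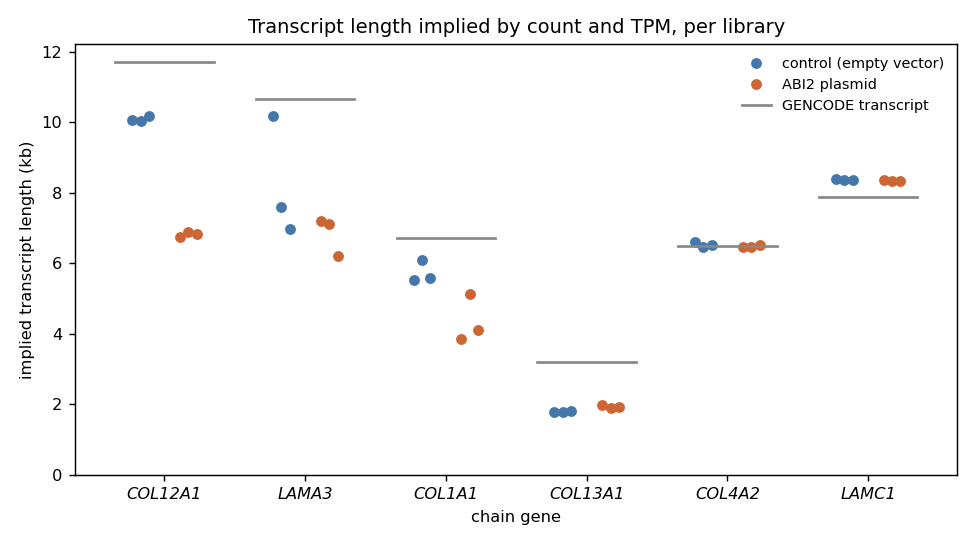
Implied transcript length in kb of 6 chains, 1 dot per library (blue control, orange ABI2), with the length of the GENCODE transcript as a grey line. The COL12A1 groups are apart, with means of 10096 and 6823 bases, LAMA3 is spread in the control group, and COL4A2 and LAMC1 hardly move.

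**Figure D5:**
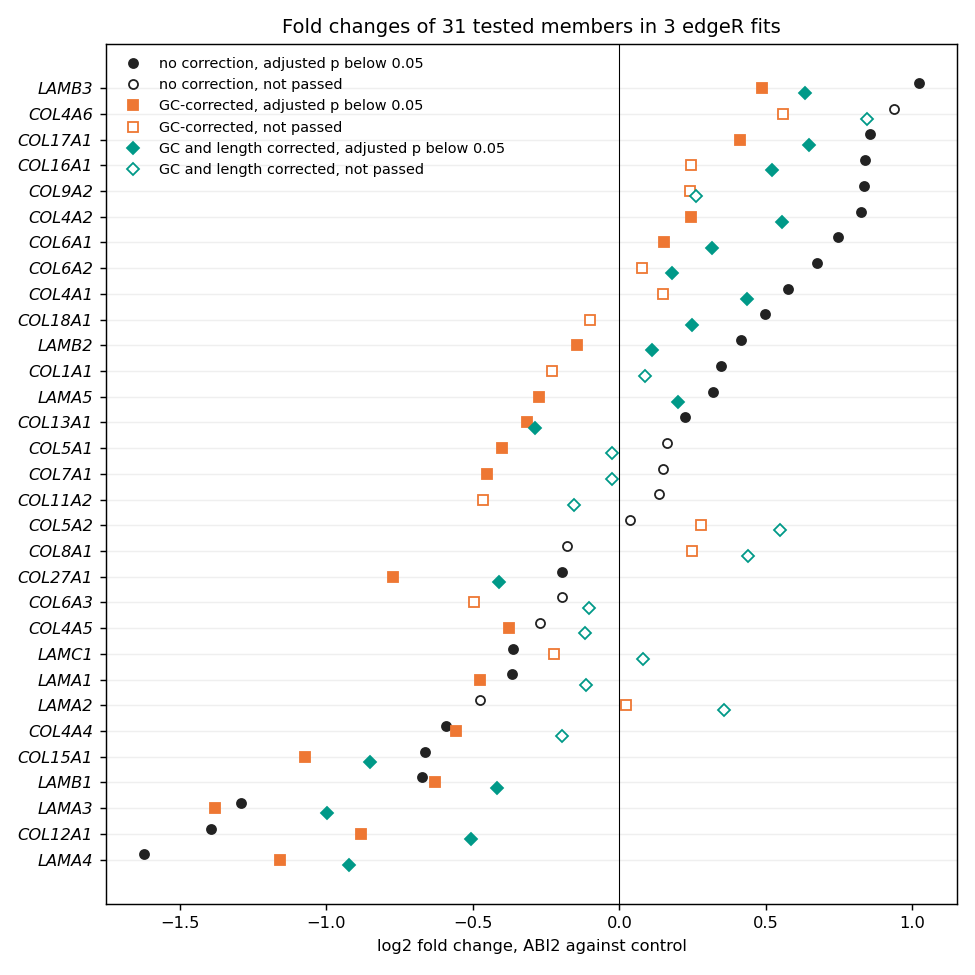
Log2 fold change of 31 tested chains, ABI2 against control, in the edgeR fit without correction (black), with the GC correction (orange) and with GC and length corrected (green); filled symbols have an adjusted p below 0.05. LAMB3, COL4A2, COL17A1 and COL6A1 stay above 0 and LAMA3, LAMA4, COL12A1, LAMB1, COL15A1 and COL27A1 below 0 with filled symbols in all 3 fits, while COL13A1 changes side.

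The genes that make, process and bind these chains were followed by 6 lists with 97 measured genes, of which 71 passed the filter. Of these 39 rose, 19 fell and 13 did not pass (median log2 fold change 0.36), against 35.1% higher and 38% lower over all genes. With the GC correction 23 rose and 15 fell, against 28.6% and 22.6% of all genes. With GC and length corrected 28 rose and 10 fell, against 28.1% and 22.1%. Of 22 genes that modify collagen chains in the endoplasmic reticulum, 14 rose, 6 fell and 2 did not pass (median 0.47). After GC correction 11 rose and 2 fell. The lysyl hydroxylase PLOD1, the galactosyltransferase COLGALT1 and the chaperone FKBP10 rose (log2 fold changes 0.71, 0.77 and 0.78, and 0.18, 0.25 and 0.24 with the GC correction). PLOD2, the lysyl hydroxylase of collagen telopeptides, fell (-1.98, and -0.23 with the GC correction, at a GC content of 37.6%). Of 18 genes of processing and crosslinking 13 were tested, and 9 rose, 2 fell and 2 did not pass (median 0.55), with 6 higher and 2 lower after GC correction. The proprotein convertase FURIN, the lysyl oxidase relatives LOXL1 and LOXL2 and the transglutaminase TGM2 rose (0.76, 0.83, 0.76 and 0.67, and 0.18, 0.24, 0.24 and 0.26 with the GC correction, where all 4 passed).

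Of 16 basement membrane partners 9 were tested, and 5 rose, 3 fell and 1 did not pass, with 3 higher and 4 lower after GC correction. The counts of this and the next lists stand beside 35.1% higher and 38% lower over all tested genes. With the GC correction those shares were 28.6% and 22.6%. TINAGL1, a laminin-binding matrix protein, rose from 17.8 ± 1.15 to 63.2 ± 3.38 CPM (SD, n = 3), a log2 fold change of 1.82 and of 1.24 with the GC correction. The type IV collagen-binding SPARC and perlecan, HSPG2, rose (0.64 and 0.88, and 0.99 and 0.29 with the GC correction), and NTN4, a netrin that binds laminin, fell (-0.92 and -0.67). Of 16 interstitial partners 7 were tested, and 2 rose, 1 fell and 4 did not pass. Tenascin-C, TNC, and fibulin-4, EFEMP2, rose (0.29 and 0.31) but not with the GC correction. FBN1, the microfibril protein fibrillin-1, fell with and without the GC correction (-0.53 and -0.97) but did not pass with GC and length corrected (-0.16, edgeR adjusted p = 0.129). The glycoprotein thrombospondin-1, THBS1, did not pass (-0.14) but rose with the GC correction (0.49). Of 18 receptors 15 were tested, and 6 rose, 6 fell and 3 did not pass, with 2 higher and 3 lower after GC correction. The uncorrected receptor counts were near the shares over all genes. ITGA1 and ITGA10, integrin chains that bind collagen, fell (-2.58 and -0.89, and -0.91 and -1.19 with the GC correction). BCAM, a receptor for LAMA5, and CD151, a tetraspanin partner of laminin-binding integrins, rose (1.07 and 0.80, and 0.47 and 0.21 with the GC correction), and with GC and length corrected CD151 did not pass (0.10, edgeR adjusted p = 0.0555). Of 7 netrins and laminin-domain genes 5 were tested. NTN5 and NTNG2 rose (0.89 and 0.52) but not with the GC correction, and MEGF9 fell in both (-1.40 and -0.39) but did not pass with GC and length corrected (-0.19, edgeR adjusted p = 0.234).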

How the data were processed

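RNA of 3 control and 3 ABI2 libraries was sequenced; groups came from the sample titles. The authors deposited 1 table of all libraries. Per the file headers it holds a read count, a TPM and an FPKM value per gene and library; the deposited FPKM values were not used. Per the submitters' processing notes, the tools were HISAT2 2.1.0, StringTie 1.3.3b, FastQC 0.11.2 and Trimmomatic and the build GRCh38. Annotation, counting program and strand setting: not given in the sources used here. Of 20261 rows, 1 broke off and was left out. Of all counts from 1 to 6, 39.1% were 2 and 8.93% were 1, and the sources used here do not say what 1 count stands for. Table coordinates are given, and equalled GENCODE release 29 for 37 of the 56 genes.

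Deposited counts were tested with edgeR 4.0.16 in R 4.3.3 (TMM, filterByExpr with a minimum count of 10, robust quasi-likelihood F test, two-sided, Benjamini-Hochberg over 13325 genes, threshold 0.05), without a replicate block; SEs are the fold change over the square root of F. Alternatives were relative log expression or plain library size scaling, no filter, DESeq2 1.42.0, limma 3.58.1 on log2 of the deposited TPM plus 1 or 0.1, each library left out, the replicate block, and offsets from natural splines (5 df) of GC content, or of GC content and length, of the GENCODE transcript with the longest coding sequence, for 13314 genes. The edgeR fits without correction and with the GC correction were also run on simulated counts. These had either no trend or a linear GC trend, unlike the curved trend of the data, and the outcome is not given here. Replicate libraries were distinct (chi-square over its degrees of freedom 21.1 to 48.2 for each pair of a group). The genes and lists were chosen with earlier results of these data known. Chains averaging at least 10 CPM in their higher group are given by library, as are lower chains above the filter, and each list by up to 4 genes of smallest p. Start windows are from RefSeq (GRCh38.p14); COL6A1 and LAMA1 are among the genes with none. Some genes of these lists enter the counts and sums but are not reported here one by one, nor drawn.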

Additional observations from a re-analysis of the deposited data

How the results depend on the processing

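Relative log expression scaling, DESeq2 and the other settings without a GC or length term kept the count of higher chains at 12 to 15 and that of lower chains at 5 to 10. Over all genes, these settings called 3760 to 4839 higher and 4713 to 5420 lower, of 13325 to 16184 tested. Without single libraries, 13 to 14 chains rose and 5 to 7 fell, and the count of 5 came without control 1, without control 3 and without ABI2 2. Over all genes, 4369 to 4562 rose and 4713 to 5012 fell in those fits, of 13447 to 13506 tested. Under all 16 alternatives, COL17A1, COL4A2 and LAMB3 were among those that rose, and COL12A1, LAMA3, LAMA4 and LAMB1 fell. Calls lost elsewhere were COL13A1 and COL1A1 with plain library size scaling, COL27A1 without the filter, LAMA5 on both TPM scales and COL15A1 with DESeq2, and COL4A5 fell with plain library size scaling. On log2(TPM + 0.1) the median of all genes was -0.13, against -0.0071 in the edgeR fit, and COL13A1 was at -0.024 there and -0.024 on log2(TPM + 1).

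The GC correction gave 5 higher and 14 lower chains, 23 higher genes of the matrix lists, and 3009 lower genes of all tested; GC and length corrected gave 10 lower genes of the matrix lists and 2937 lower of all. Of the log2 fold changes that passed in either fit, those that turned sign with the GC correction, with the value under block and GC correction where it differed, included -0.32 for COL13A1, -0.10 for COL18A1, -0.23 for COL1A1, -0.40 for COL5A1, -0.45 for COL7A1, -0.27 for LAMA5, -0.14 for LAMB2, -0.052 and -0.049 for TNC, 0.49 for THBS1, -0.29 and -0.28 for EFEMP2 and -0.062 and -0.060 for NTNG2. With GC and length corrected they included -0.29 for COL13A1, 0.079 for LAMC1, 0.76 for THBS1 and -0.37 for EFEMP2. Of chains that passed in none of these fits, COL11A2, COL8A1 and LAMA2 turned sign with both corrections, to -0.46, 0.25 and 0.023 with the GC correction and -0.16, 0.44 and 0.36 with GC and length corrected, where COL5A1 and COL7A1 also did, to -0.023 and -0.025 without passing. The cause was not tested.

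Same-numbered libraries of both groups had correlations of their deviations of 0.0223, 0.0185 and 0.0614, all below 0.1, so the replicate numbers were not taken as pairs. With the replicate block 13 chains rose and 8 fell, and COL15A1 and COL1A1 did not pass. Over all 13325 tested genes, 4548 rose and 4929 fell with the block. The block with the GC correction gave 4 higher and 13 lower chains and 21 higher and 9 lower genes of the matrix lists. Of all 13314 genes in that fit, 3471 were higher and 2742 lower. The same fit ended the GC-corrected calls of COL6A1 (edgeR adjusted p = 0.0711) and LAMB2 (0.0548). Not every number correlated best with its own.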
